A study of Homo sapiens with 60 samples.

Results

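Banhasasim-tang and Yijung-tang are multi-herb formulas of Korean traditional medicine, and this comparison set their water extracts side by side in HT29 cells, an epithelial line established from a human colorectal adenocarcinoma. All 18 libraries whose sample code begins with 7 were used, of 60 libraries in the series: 9 of cells given Banhasasim-tang and 9 of cells given Yijung-tang. Each formula was given for 24 h at 500 µg/mL (high dose), 100 µg/mL (medium) or 20 µg/mL (low), with 3 libraries per formula and dose. The formulas were compared at matched doses, with the dose as a block. Beside them stand 3 libraries of cells given vehicle alone, which the sample labels name as 0.1% DMSO and the series' design text as 2%, and 3 of another formula, Bojungikgi-tang, with 1 library at each of the same doses. The labels place every one of these libraries in batch B, but the vehicle and Bojungikgi-tang libraries carry other set codes. Single-herb extracts of batch B are quoted at the end. They are Citri Unshius Pericarpium and Cimicifugae Rhizoma (set code 5), and Bupleuri Radix and Aconiti Lateralis Radix Preparata (set code 6). Each herb was given for 24 h at the same doses, with 3 libraries per dose. As general background, Banhasasim-tang is built on Pinellia tuber with Scutellaria, Coptis, ginger, ginseng, licorice and jujube, and Yijung-tang on ginseng, ginger, Atractylodes and licorice. The labels used here do not list the composition, and each extract is a mixture. One cell line was treated, and nothing says that the 3 libraries of a group came from separate cultures, so p-values here speak only of spread among libraries, part of which may be technical.

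Colonic epithelial cells take part in defence through 2 transcriptional programmes that bear on the results. NF-kB transcription factors, held in the cytoplasm by inhibitor proteins until a signal arrives, switch on chemokines that recruit neutrophils and other leukocytes, acute-phase and antimicrobial proteins, and their own inhibitors. The interferon programme runs through transcription factors such as STAT2 and IRF9 and switches on antiviral enzymes such as the OAS proteins, which sense double-stranded RNA, and the MX GTPases.

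The 18 libraries held 10.35 to 24.48 M estimated counts each. All 8 epithelial markers were at or above 1 CPM (counts per M, on TMM-scaled totals) in every library. Most markers of other cell types were low. The 7 fibroblast markers summed to 1.64 to 2.84 CPM and the 6 neuroendocrine markers to 1.02 to 2.14. The 6 endothelial markers summed to 1.76 to 3.86 CPM. Among them CDH5 and KDR were at 0 in all 18, and 1 was at or above 1 CPM in all 18. Of the 8 leukocyte markers, CD3D and MS4A1 were at 0, and 2 were at or above 1 CPM in all 18. LYZ was high in both formulas (the sum of the list ran from 1564 to 2245 CPM). No marker gene was called in the comparison. The second high-dose library of Banhasasim-tang (high 2) stood apart. Its genes deviated from their group means by 0.31 on the log2 scale (root mean square), against 0.06 to 0.19 in the other 17. Its deviations fell with exon length (rank correlation across genes -0.65), and its ribosomal protein genes lay a median of 0.40 above their group means. Because the group mean includes high 2, high 1 and high 3 deviated the other way. Their correlations were 0.56 and 0.62, and their ribosomal protein medians -0.18 and -0.21. In the other groups the correlation ran from -0.45 (Yijung-tang medium 2) to 0.38 (Banhasasim-tang low 2). Results are therefore given with and without high 2.

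Over all doses together, Banhasasim-tang cells held more RNA of 14 of 18 tested NF-kB target and chemokine genes and of 19 of 29 tested interferon-stimulated genes than Yijung-tang cells, and no gene passed the threshold in the other direction. Over all doses, 81 of 15060 tested genes (0.538%) were called at an adjusted p under 0.05 (edgeR quasi-likelihood test, Benjamini-Hochberg), all 81 higher and 0 lower in Banhasasim-tang. At an unadjusted p under 0.05 there were 595 of 15060 genes in either direction (1044 of 15313 without Banhasasim-tang high 2). The 595 are a smaller share than the 0.05 that no difference would give. DESeq2 called 91, with 90 higher and 1 lower. The lower one was STAG3L2, with a log2 difference of -0.19. Without Banhasasim-tang high 2, edgeR called 102 of 15313 genes (0.666%), 101 higher (0.66%) and 1 lower (0.00653%). That set included 79 of the 81, and the lower gene was VEGFB, a vascular growth factor gene, with a log2 difference of -0.17. These names, outside the rule for named genes, were chosen after their values were seen. Other fits called up to 7 genes lower, the most with no filter on low counts. Of the 81 genes, 29 differed by at least 1 on the log2 scale and 16 by at least 2. All 9 Banhasasim-tang libraries lay above all 9 Yijung-tang libraries for 42 of the 81, and for 43 (0.286%) of all tested genes. The reverse held for 0 genes. In bulk RNA, more cells expressing a gene and more RNA per cell cannot be told apart.

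Among the largest differences were those of 6 CXC chemokines that attract neutrophils, whose genes are clustered on chromosome 4. Because all 6 were called higher, the sequence before their start sites is shown. In the 250 bases before the RefSeq start (GRCh38.p14), all of CXCL1, CXCL2, CXCL3, CXCL5, CXCL6 and CXCL8 held 1 match to the letters GGAANNTCC, a shortened form of the site that NF-kB proteins bind, searched on both strands. The 6 matches, in capitals with 10 bases on each side, are written 5′ to 3′ on the strand of the gene.
CXCL1, chr4:73869305-73869333, plus strand: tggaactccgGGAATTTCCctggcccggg
CXCL2, chr4:74099254-74099282, minus strand: tggagctccgGGAATTTCCctggcccggg
CXCL3, chr4:74038749-74038777, minus strand: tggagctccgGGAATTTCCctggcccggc
CXCL5, chr4:73998749-73998777, minus strand: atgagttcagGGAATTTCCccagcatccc
CXCL6, chr4:73836579-73836607, plus strand: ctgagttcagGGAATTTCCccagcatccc
CXCL8, chr4:73740468-73740496, plus strand: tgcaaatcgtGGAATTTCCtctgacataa
All 6 share the same 9 bases, which begin 77 to 91 bases before the start. CXCL1 and CXCL2 are identical at 28 of the 29 bases, CXCL5 and CXCL6 at 28, and CXCL8 matches CXCL1 at 17. LCN2, an antimicrobial protein gene, and TNFAIP3, an NF-kB inhibitor gene, are shown for matches that differ inside the letters left free.
LCN2, chr9:128149268-128149296, plus strand: cagcactccgGGAATGTCCctcactctcc
TNFAIP3, chr6:137867182-137867210, plus strand: acgtgactttGGAAAGTCCcgtggaaatc
Promoters of 65 of the 81 called genes were found by symbol in the table used, and 17 of them (26.2%) held such a match. Among 10672 promoters of tested genes, 400 (3.75%) held one, and 3.84% of all 35116 promoters listed did. CCL20, BIRC3 and PIGR had no match to these letters in this window. A match is a description of the sequence and not a measured binding site.

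CXCL1, a neutrophil-attracting ligand of the receptor CXCR2, showed the difference most plainly. The 3 Banhasasim-tang libraries measured 33.9, 43.9 and 36.5 CPM at the high dose, 38.0, 34.3 and 35.8 at the medium dose and 28.96, 27.9 and 29.4 at the low dose. Yijung-tang measured 2.17, 1.41 and 1.15 CPM at the high dose, 1.42, 1.59 and 0.943 at the medium dose and 1.61, 1.36 and 1.81 at the low dose. The groups were far apart at every dose, and the 3 vehicle libraries, at 1.53 to 2.04 CPM, lay within the Yijung-tang range. CXCL1 was 4.49 ± 0.10 (log2 difference ± approximate SE, n = 9 and 9) higher in Banhasasim-tang, with an adjusted p of 8.04e-17 in edgeR. CXCL8, which encodes interleukin-8, measured 27.4 CPM at the lowest, 31.2 at the median and 39.0 at the highest in Banhasasim-tang, against 3.54, 4.51 and 5.48 in Yijung-tang. Its difference was 2.74 ± 0.07 (edgeR adjusted p = 9.36e-16).

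CXCL6 and CXCL3, further ligands of the same receptors, were low in all Yijung-tang libraries. CXCL6 ran from 3.53 to 5.78 CPM in Banhasasim-tang and from 0 to 0.867 in Yijung-tang, a log2 difference of 3.67 ± 0.22. CXCL3 ran from 4.02 to 6.72 CPM against 0.631 to 1.48, a difference of 2.34 ± 0.12. Neither pair of ranges overlapped. CXCL2 and CXCL5 fell below the level set for named genes and were chosen after their values were seen. CXCL2 was 2.40 ± 0.19 higher. CXCL5 was at 0 in 8 of 9 Yijung-tang libraries: its pooled counts were 142 against 1, a ratio of 152 after scaling to the library totals, with a 95% interval of 26.8 to 6033 that covers counting error only. CXCL1, CXCL2 and CXCL3 have near-identical sequences, as do CXCL5 and CXCL6, and RSEM shares ambiguous reads among such copies, so the split within each set is uncertain. CXCL10, an interferon-induced attractant of T cells also chosen after its values were seen, differed by 1.42 ± 0.29, but its ranges overlapped (0.377 to 0.953 CPM against 0.047 to 0.438). The CXCL10 call ended when any of 7 libraries was left out. It also ended with a replicate block within dose and with the medium and low doses alone.

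**Figure D1:**
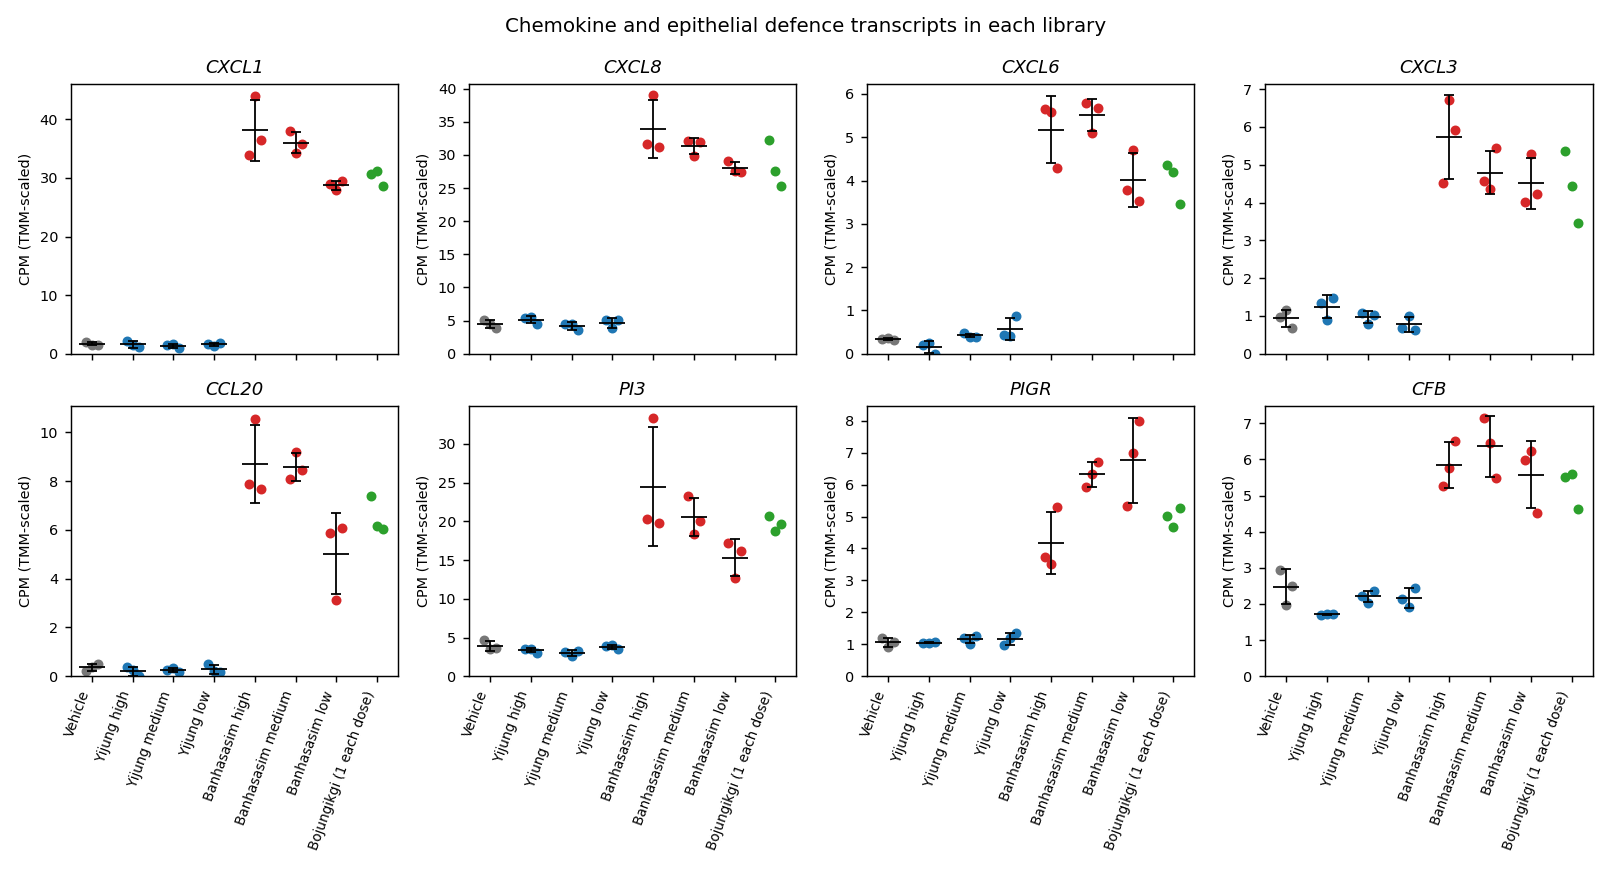
CPM (y axis, linear from 0, TMM-scaled) of 8 transcripts in each library of the vehicle, Yijung-tang, Banhasasim-tang and Bojungikgi-tang groups (x axis); points are libraries, and bars are the mean and SD of 3 libraries, omitted for Bojungikgi-tang with 1 library a dose. CXCL1 lies between 27.9 and 43.9 CPM in the Banhasasim-tang libraries and at or below 2.17 CPM in the Yijung-tang and vehicle libraries.

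CCL20, the ligand of CCR6 that attracts immature dendritic cells and a subset of T cells, had the largest difference of the 14 genes named by rule. Banhasasim-tang libraries measured 7.88, 10.5 and 7.67 CPM at the high dose, 8.07, 9.20 and 8.46 at the medium dose and 5.88, 3.11 and 6.07 at the low dose. Every Yijung-tang library lay at or below 0.487 CPM, and 1 was at 0. The log2 difference was 4.78 ± 0.22 (edgeR adjusted p = 4.93e-11), a size that is approximate because the Yijung-tang counts were few. Among other secreted signals, chosen after their values were seen, IL17C, an epithelial cytokine of the interleukin-17 family, had pooled counts of 157 against 11, a ratio of 15.2 (95% counting interval 8.29 to 31.2). CSF1, the macrophage growth factor, was 1.71 ± 0.18 higher, and IL32, a proinflammatory cytokine, 1.88 ± 0.26.

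PI3, PIGR and CFB, 3 of the genes named by rule, encode secreted or surface proteins of epithelia. PI3 encodes elafin, an inhibitor of neutrophil elastase with antimicrobial activity. It measured 12.6 CPM at the lowest, 19.8 at the median and 33.3 at the highest in Banhasasim-tang, against 2.55, 3.51 and 4.08 in Yijung-tang. The highest value came from Banhasasim-tang high 2. PI3 differed by 2.55 ± 0.14 with that library and by 2.44 without it. PIGR, the receptor that carries polymeric immunoglobulins across the epithelium, ran from 3.52 to 7.98 CPM against 0.974 to 1.34, a difference of 2.35 ± 0.12 (edgeR adjusted p = 1.64e-10). CFB, complement factor B of the alternative pathway, ran from 4.52 to 7.14 CPM against 1.70 to 2.44 and differed by 1.56 ± 0.09. None of these 3 genes had overlapping ranges.

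The central complement component C3 and the acute-phase protein gene SAA1 were nearly absent from Yijung-tang cells. C3 had pooled counts of 318 against 6, a ratio of 56.6 (95% counting interval 25.7 to 155). SAA1 had 108 against 2, a ratio of 57.7 (15.6 to 482), and reads from its close copy SAA2 may be shared with it. LCN2, which encodes the siderophore-binding protein lipocalin 2, was already abundant. It ran from 80.0 to 93.0 CPM in Yijung-tang and from 128 to 176 in Banhasasim-tang, a difference of 0.76 ± 0.05 with no overlap. MMP7, a secreted protease of epithelial cells, ran from 45.8 to 58.2 CPM in Yijung-tang and from 67.5 to 94.2 in Banhasasim-tang. C3, SAA1, LCN2 and MMP7 were chosen after their values were seen. With so few Yijung-tang counts, C3 and SAA1 could pass the filter on low counts through Banhasasim-tang alone, as could CCL20, CXCL5 and IL17C. The sizes and intervals of these genes are tied to that filter and describe them only.

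The list of NF-kB targets and chemokines held 21 genes, of which 18 were tested and 14 were called, all higher, with a median log2 difference of 0.86 over the 18 tested. Over all tested genes, 0.538% were called and the median was -0.00. Members near the filter on low counts could pass it through the higher formula alone, so the count describes these members only. Members beyond the 4 with the smallest adjusted p in a list were named after their values were seen. By role, the adhesion molecule gene ICAM1, whose protein binds leukocyte integrins, ran from 7.09 to 10.2 CPM against 4.13 to 5.40 and differed by 0.96 ± 0.08 (edgeR adjusted p = 1.46e-07). BIRC3, an inhibitor of apoptosis that acts in NF-kB signalling, ran from 8.79 to 12.5 CPM against 4.97 to 6.87 and differed by 0.92 ± 0.07. The feedback inhibitor TNFAIP3 (A20) differed by 0.81 ± 0.12, with ranges that overlapped. The subunit gene NFKB2 differed by 0.25 ± 0.05. The 4 members that were not called were NFKBIA (log2 difference 0.19 ± 0.06, edgeR adjusted p = 0.397), NFKBIZ (0.12 ± 0.03, adjusted p = 0.157), RELB (0.33 ± 0.08, adjusted p = 0.0813) and NFKB1 (-0.02 ± 0.03). Without Banhasasim-tang high 2, NFKBIZ was also called. Feedback regulators outside the list, named after their values were seen, were ZC3H12A, an RNase that degrades cytokine messages (0.52 ± 0.04), and TNIP1, a partner of A20 (0.24 ± 0.03).

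The interferon-stimulated genes formed the other list with many calls. Of 30 list members, 29 were tested and 19 were called, all higher, with a median log2 difference of 0.45 over the 29. Over all tested genes, 0.538% were called. As in the NF-kB list, members near the filter on low counts could pass it through the higher formula alone. Both lists were chosen with earlier results of these data known. Another short pattern was found in the promoters of some of the called interferon-stimulated genes, and 4 that hold it are shown. The pattern searched was GAAA and GAAA with any 2 bases between them, on both strands, a core of the site bound by interferon-activated factors. Capitals mark the match, or the part of a second match that falls in the window.
IFIT1, chr10:89392510-89392539, plus strand: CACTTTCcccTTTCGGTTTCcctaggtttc
IFI44L, chr1:78620365-78620394, plus strand: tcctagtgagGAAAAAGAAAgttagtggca
DDX60, chr4:168318786-168318815, minus strand: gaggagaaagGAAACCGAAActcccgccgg
IFI6, chr1:27672246-27672345, minus strand: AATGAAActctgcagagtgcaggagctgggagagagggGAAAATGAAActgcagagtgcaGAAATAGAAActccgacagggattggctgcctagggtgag
Of the 65 called genes with a promoter in the table, 18 (27.7%) held this pattern in the 250 bases before the start, against 236 of 10672 (2.21%) promoters of tested genes. Of the 13 called members of the NF-kB and chemokine list with a promoter in the table, 0 held it and 8 held the NF-kB letters. Of the 14 called members of the interferon list with a promoter in the table, 8 held it and 2 held the NF-kB letters. The 6 without a match in this window were OAS1, MX1, HERC6, IRF9, XAF1 and PARP9.

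OAS1, which makes the second messenger that activates RNase L, showed no overlap between the formulas. It ran from 28.6 to 32.3 CPM in Yijung-tang and from 35.5 to 54.3 in Banhasasim-tang, a difference of 0.53 ± 0.05 (edgeR adjusted p = 8.86e-07). IFIT1, which binds foreign RNA ends, ran from 5.75 to 8.67 CPM in Yijung-tang and from 9.61 to 13.7 in Banhasasim-tang. It differed by 0.72 ± 0.06. OAS2 measured 4.44 CPM at the lowest, 6.04 at the median and 10.1 at the highest in Yijung-tang, against 7.35, 12.9 and 14.9 in Banhasasim-tang, a difference of 1.05 ± 0.11. Its ranges overlapped because Banhasasim-tang high 2, at 7.35 CPM, lay below Yijung-tang medium 3 (10.1) and low 3 (8.20). MX1, an antiviral GTPase, differed by 0.71 ± 0.08 with overlapping ranges, and its neighbour MX2 by 1.14 ± 0.19. IFI44L differed by 1.35 ± 0.16, with 0.653 to 2.12 CPM in Yijung-tang and 2.20 to 4.52 in Banhasasim-tang. The upstream factors moved less: IRF9 differed by 0.47 ± 0.06 and IRF7 by 0.35 ± 0.05, while STAT2 was not called (0.04 ± 0.05). For OAS3 (0.43 ± 0.10), the call ended when any of 16 libraries was left out, with a replicate block within dose and with no dose block. The 10 tested members that were not called included ISG15 (0.46 ± 0.11, edgeR adjusted p = 0.0933), IFIT3 (0.29 ± 0.08, adjusted p = 0.169) and IRF1 (0.10 ± 0.04, adjusted p = 1.00). Without Banhasasim-tang high 2, 21 of the 29 were called. OAS, MX and IFITM genes have close relatives whose reads may be shared.

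**Figure D2:**
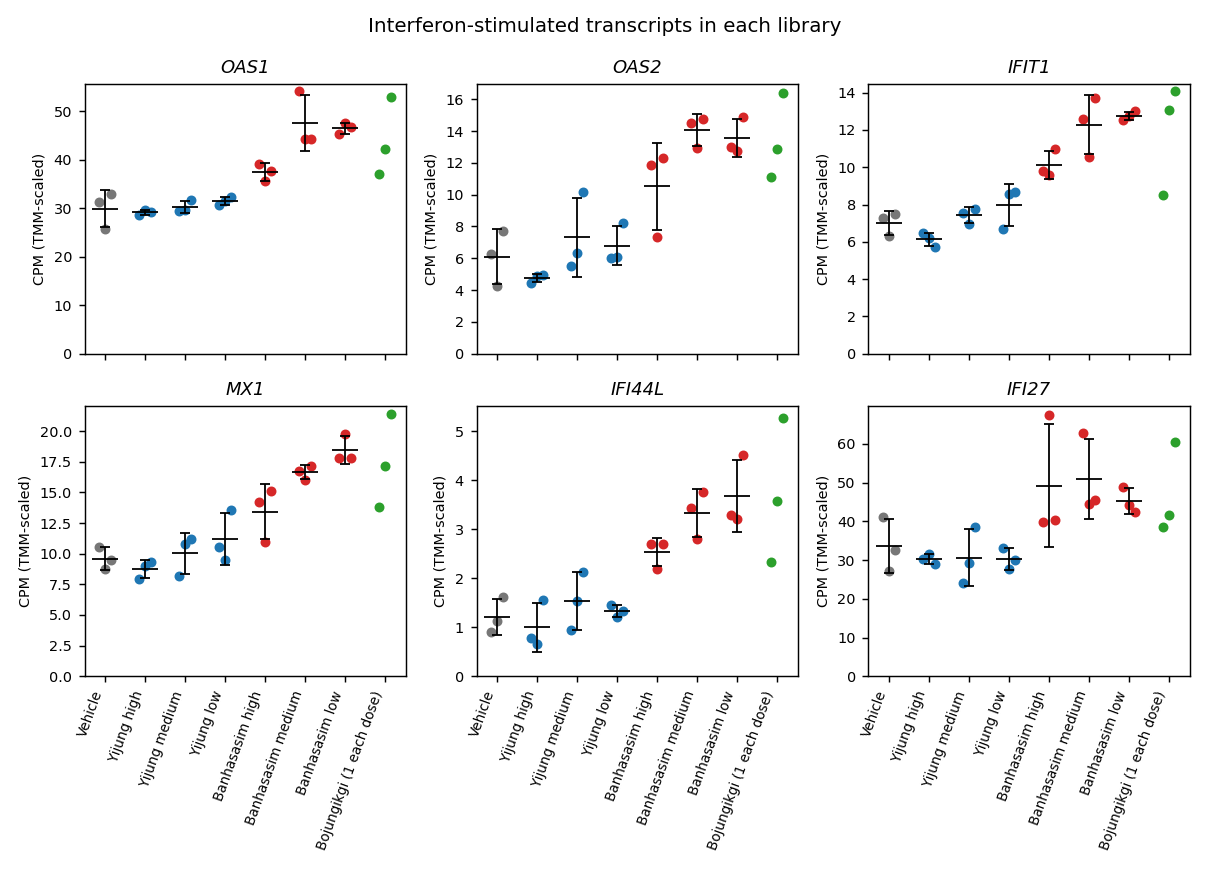
CPM (y axis, linear from 0, TMM-scaled) of 6 interferon-stimulated transcripts in each library by group (x axis); points are libraries, and bars are the mean and SD of 3 libraries, omitted for Bojungikgi-tang with 1 library a dose. OAS1 lies between 35.5 and 54.3 CPM in Banhasasim-tang and between 28.6 and 32.3 CPM in Yijung-tang.

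Of the 81 called genes, 33 were in these lists, 3 in other lists and 45 in none. The remaining list members called were CDKN1A, the p53-induced cell cycle inhibitor (0.37 ± 0.05, 1 of 18 tested p53 targets), CEACAM7, an adhesion molecule of differentiated colonocytes (2.23 ± 0.21, 1 of 19 enterocyte genes), and CYP3A5, a drug-oxidising cytochrome (0.19 ± 0.03, 1 of 14 drug metabolism and export genes). In each of the other 28 lists, 0 members were called, and the lists covered NRF2 targets, endoplasmic reticulum folding, respiratory chain, lipid synthesis, cell cycle, tight junctions and secretory lineage among others. The aryl hydrocarbon receptor target CYP1A1 did not pass the test (0.141 to 1.18 CPM in Banhasasim-tang, 0.438 to 1.56 in Yijung-tang), nor did CYP1B1 (log2 difference -0.03 ± 0.05), HMOX1 (-0.16 ± 0.06) or NQO1 (-0.02 ± 0.05). A rule-named gene outside every list was POU2F2, the transcription factor OCT2, at 3.66 to 5.11 CPM against 1.18 to 2.89, a difference of 1.16 ± 0.12 (edgeR adjusted p = 7.23e-06).

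**Figure D3:**
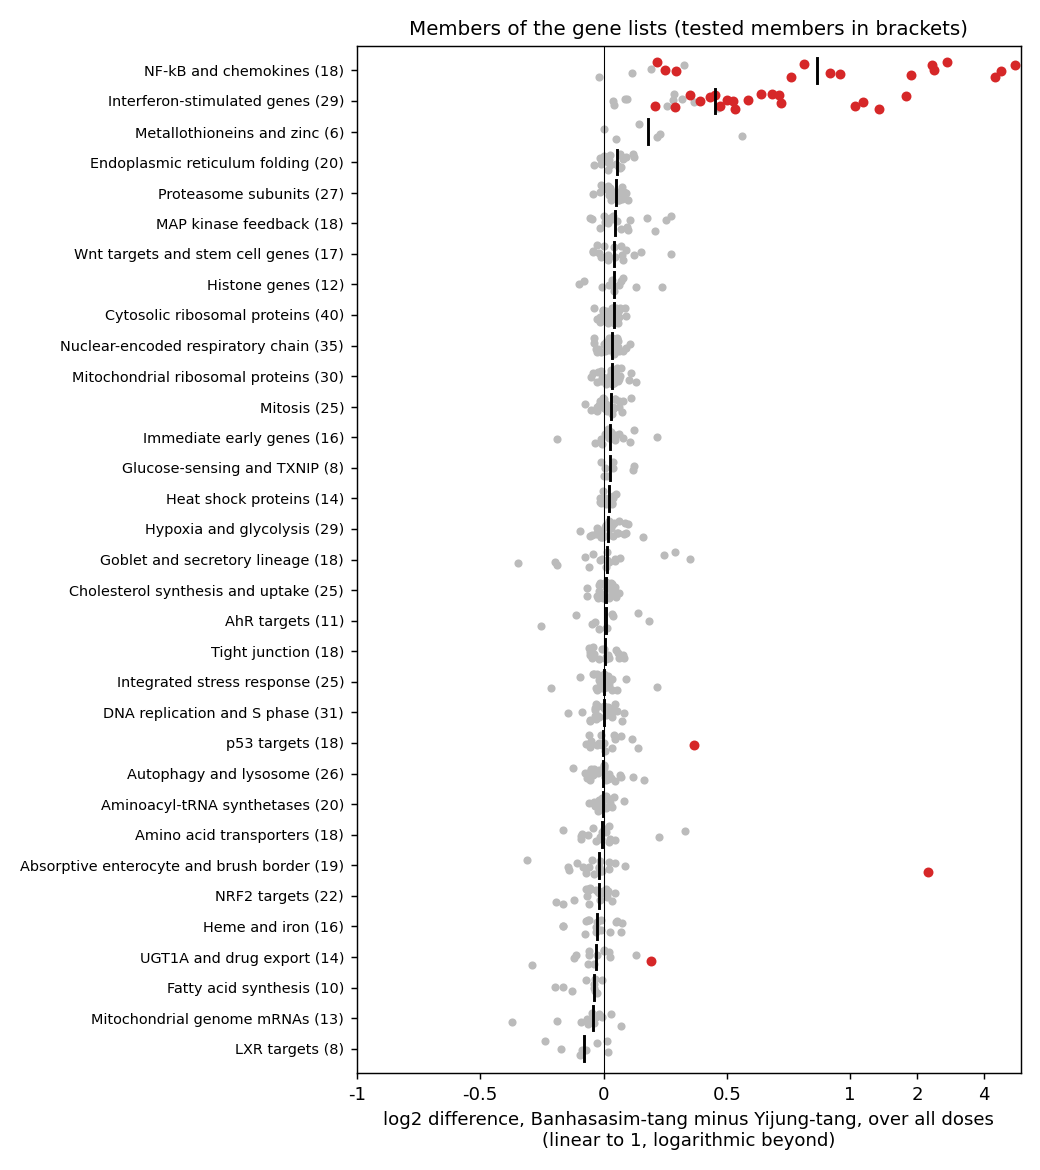
Log2 difference over all doses (x axis, Banhasasim-tang minus Yijung-tang, linear to 1 and logarithmic beyond) of the tested members of 33 gene lists (y axis, number of tested members in brackets); red points are called genes, grey points are not called, and black bars are list medians. Red points lie mainly in the NF-kB list (14 of 18) and the interferon list (19 of 29).

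Other called genes were chosen after their values were seen. SOD2, the mitochondrial superoxide dismutase, differed by 0.29 ± 0.03, SDC4, a heparan sulfate proteoglycan, by 0.46 ± 0.04, and PTGS2, the inducible cyclooxygenase, by 0.28 ± 0.05. HDAC9, a histone deacetylase, differed by 1.46 ± 0.17 and IL4I1, a secreted amino acid oxidase, by 2.17 ± 0.24. The interferon gamma receptor chain gene IFNGR1 differed by 0.24 ± 0.04. INO80B-WBP1, a read-through of neighbouring genes that shares their exons, had 89 pooled counts in Banhasasim-tang and 0 in all 9 Yijung-tang libraries. Its call ended when any of 15 of the 18 libraries was left out, and with DESeq2, all 57 libraries, the replicate block or no dose block. It was at 0 in 3 Banhasasim-tang libraries and reached 0.453 CPM in vehicle, so its pattern was not that of the chemokines. In 20 of the 81 genes, the mean log2 CPM was under 1, and their fitted differences are imprecise.

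Each dose was also tested alone. At the high dose 30 genes were called (0.199%), 29 higher (0.193%) and 1 lower (0.00664%). This split moved with the fit: it was 40 higher and 10 lower with DESeq2, 66 and 35 with limma voom, 125 and 45 with no filter on low counts, 39 and 9 without Banhasasim-tang high 2 and 38 and 13 without high 3. At the medium dose 32 were called (0.212%), all higher, and at the low dose 30 (0.199%), all higher. All 81 genes of the pooled comparison were higher in Banhasasim-tang at all 3 doses, a direction that the pooled choice partly fixes. Of these, 21 were called at each dose singly, among them CXCL1, CXCL8, CCL20, PIGR, PI3, C3, ICAM1 and IFIT1, and 42 at none of the doses. The median log2 difference of the 81 was 0.69 at the high, 0.68 at the medium and 0.60 at the low dose. A choice by the difference pooled over doses favours genes with similar differences at each dose, so these medians do not measure dependence on dose. Counts at single doses depended on single libraries. Without Banhasasim-tang high 2 they were 48 (0.313%), 49 (0.32%) and 51 (0.333%), and the high dose gave 51 without high 3 and 20 without Yijung-tang high 1. The medium dose gave 17 and 19 without Yijung-tang medium 1 and 2, and 21 without Banhasasim-tang medium 1 or 3. The low dose gave 16 to 19 without any one of Yijung-tang low 1, 2 and 3 and Banhasasim-tang low 1 and 3.

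**Figure D4:**
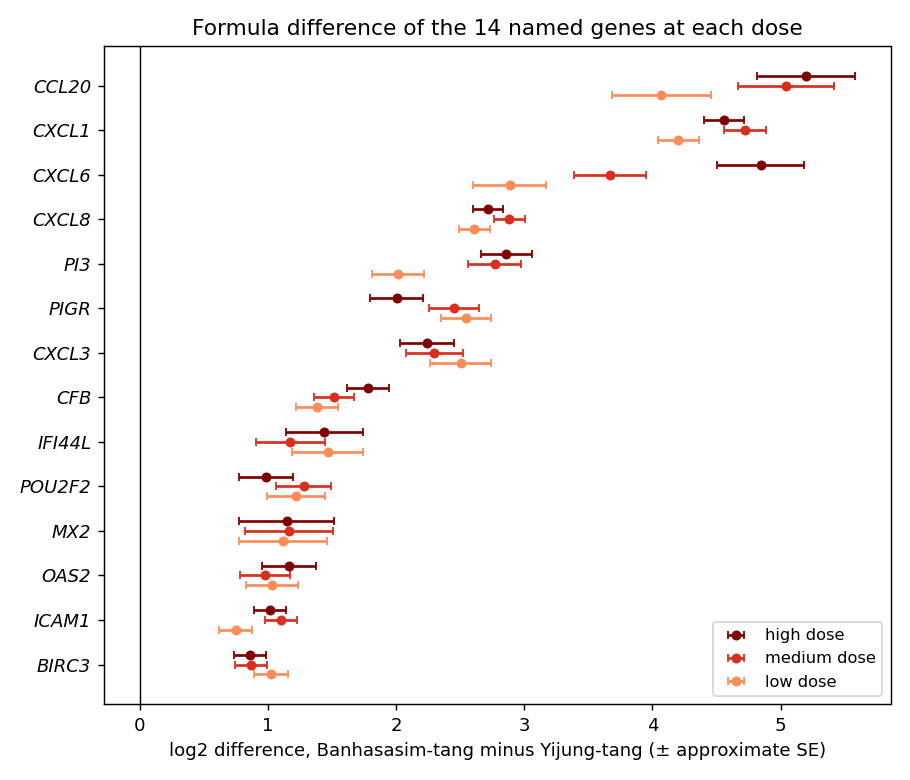
Log2 difference, Banhasasim-tang minus Yijung-tang, with its approximate SE (x axis) for the 14 genes named by rule (y axis), at the high, medium and low dose (3 libraries per formula and dose). Every point lies above 0, the lowest at 0.75 at the low dose, and CXCL1 lies at 4.56, 4.72 and 4.20 at the high, medium and low dose.

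No gene passed the test of whether the formula difference varied with dose (0 of 15060 in edgeR). An unadjusted p under 0.05 was seen for 431 genes (2.86%), and for 525 (3.43%) without Banhasasim-tang high 2. DESeq2 called 2, TUBB and the ribosomal protein pseudogene RPL21P75. Of the 81 called genes, 3 were among these 431: CXCL6, PI3 and OAS1, each with an adjusted p of 0.993 in edgeR. CXCL6 differed by 4.84 ± 0.34 at the high, 3.67 ± 0.28 at the medium and 2.89 ± 0.29 at the low dose. PI3 differed by 2.86 ± 0.20, 2.77 ± 0.21 and 2.01 ± 0.20 in the same order, and OAS1 by 0.37 ± 0.07, 0.65 ± 0.07 and 0.57 ± 0.07. The 8 genes with the smallest p in this test were GUSBP11, YEATS4, NPIPB3, TUBB, SPDYE6, TRIM31, TPST2 and ZNF84. GUSBP11, NPIPB3 and SPDYE6 belong to duplicated families whose reads may be shared.

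TUBB, a beta-tubulin gene, was the 1 gene called lower in Banhasasim-tang at the high dose. Yijung-tang measured 1954, 1925 and 1915 CPM there, against 1627, 1549 and 1565 in Banhasasim-tang, with no overlap. The difference was -0.28 ± 0.05 at the high dose (edgeR adjusted p = 0.00841), -0.07 ± 0.05 at the medium and -0.02 ± 0.05 at the low dose. Yijung-tang measured 1704, 1659 and 1618 CPM at the medium dose and 1572, 1522 and 1501 at the low dose, so its own levels ordered by dose without overlap. Vehicle libraries measured 1615 to 1702 CPM, below all 3 high-dose Yijung-tang libraries, and Banhasasim-tang stayed between 1465 and 1627 CPM over all doses. The call ended without Yijung-tang high 1 (edgeR adjusted p = 0.0571) and with no filter on low counts (0.0653).

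Levels in vehicle, which carries another set code, are given as a description with no test. For 53 of the 81 genes, the lowest of the 9 Banhasasim-tang libraries lay above the highest vehicle library, as for 1.97% of all tested genes. The 81 genes were chosen for higher values in Banhasasim-tang, so this excess is partly fixed by the choice. For 44 of the 81, the mean of Yijung-tang lay within the vehicle range, a share near the 47.4% of all tested genes. CCL20, for example, ran from 0.226 to 0.508 CPM in vehicle, PIGR from 0.927 to 1.19 and ICAM1 from 3.74 to 5.30, each close to Yijung-tang. IFI27 and IFI6 were less clear, since 1 vehicle library reached 41.2 CPM for IFI27 and 31.4 for IFI6, within the Banhasasim-tang ranges.

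**Figure D5:**
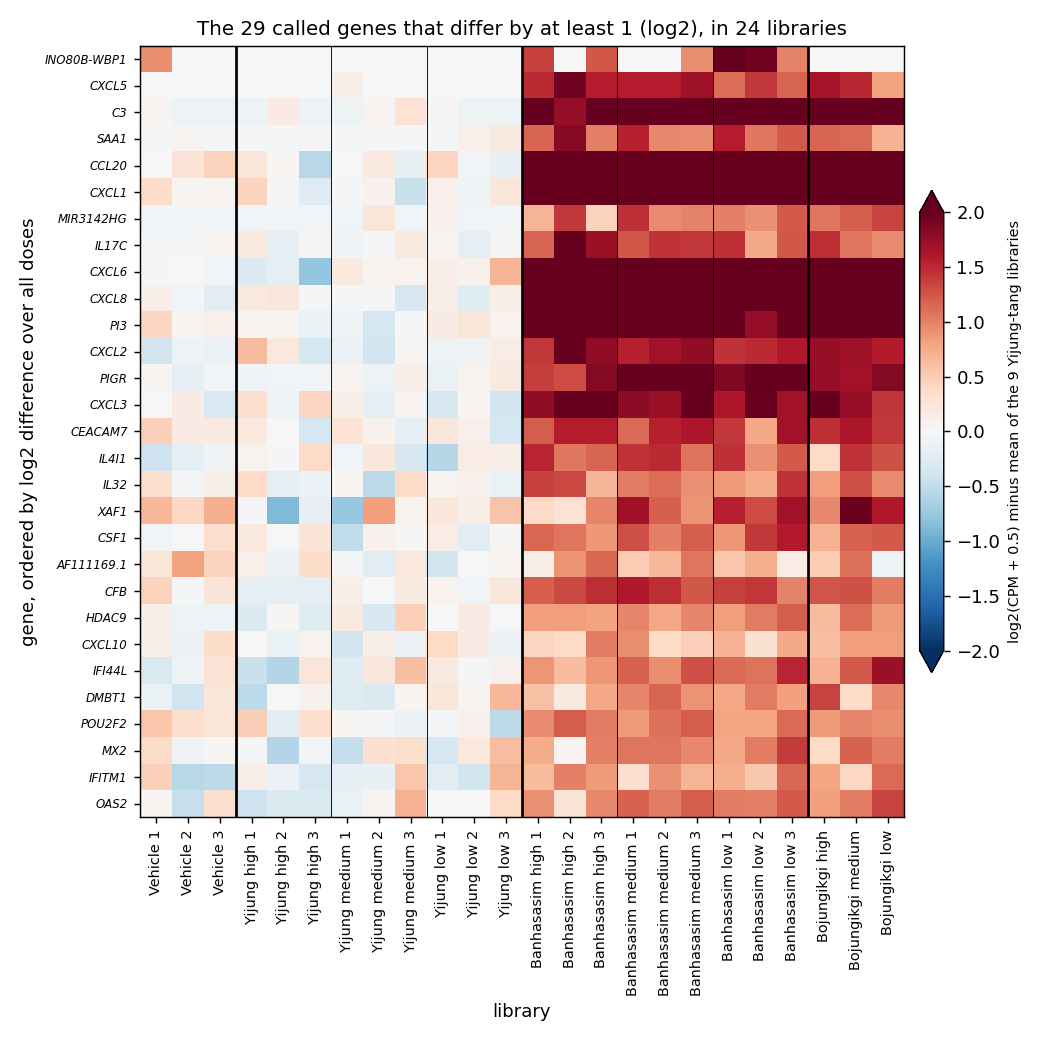
Log2(CPM + 0.5) minus the mean of the 9 Yijung-tang libraries (colour, limited to 2 in either direction) for the 29 called genes that differed by at least 1 on the log2 scale (y axis, ordered by log2 difference) in 24 libraries (x axis: 3 vehicle, 9 Yijung-tang, 9 Banhasasim-tang, 3 Bojungikgi-tang). The genes were chosen for the contrast between the Yijung-tang and Banhasasim-tang columns; for 59 of all 81 called genes, and 0.876% of all tested genes, the lowest Bojungikgi-tang library lay above the highest Yijung-tang library.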

How the data were processed

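RNA of HT29 cells was sequenced as described by the labels, and a table of estimated counts per gene (RSEM expected counts, not normalized) was deposited by the authors. STAR 2.7.3a, RSEM 1.3.3 and the build GRCh38 are named per the submitters' processing notes. The annotation version was not given in the sources used here. The table holds 60675 genes and 270 columns, of which 60 matched sample labels by name and 210 were not used. Values that were not whole (8.17%) were rounded. Depth ran from 10.35 to 24.48 M counts.

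Genes were filtered with filterByExpr by group, scaled with TMM and tested with edgeR 4.0.16 (quasi-likelihood, R 4.3.3) on the 18 libraries: dose plus formula, 6 group means for single doses, and an interaction with dose. P-values were adjusted by Benjamini-Hochberg over all tested genes, with a threshold of 0.05. Errors are the absolute log2 difference over the square root of F. CPM were set on 1 TMM scale over 24 libraries. The biological coefficient of variation was 8.58%, and 4.59% without Banhasasim-tang high 2. Replicates differed by more than counting noise in all 18 pairs (chi-square per degree of freedom 2.10 to 53.0), so none was counted as a duplicate. The fit was tested on simulated data. Alternatives were other size factors, DESeq2 1.42.0, limma 3.58.1 voom, no filter, all 57 libraries, a replicate block, fewer doses, no dose block and each library left out.

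Named genes were the 14 largest rises and 14 largest falls (4 and 4 per dose) among genes called with and without high 2, with mean log2 CPM of at least 1 and a gene symbol that is no clone, antisense or pseudogene name, the 8 smallest adjusted p of the interaction, up to 4 members per list by adjusted p, and CYP1A1, CYP1B1, HMOX1 and NQO1. The members, 33 gene lists and 5 marker lists were chosen with earlier results of these data known. Symbols came from a name table and GENCODE release 29, and promoter sequences from RefSeq (GRCh38.p14). Intervals of pooled counts are exact and cover counting error only. Some results are not reported here.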

Additional observations from a re-analysis of the deposited data

Results flagged for a closer look

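Bojungikgi-tang, a formula with 1 library at each dose, entered no test. All 3 of its libraries lay above the highest of 3 vehicle libraries for every one of the 14 genes named by rule over all doses, a signal in data outside the comparison. The lowest of its 3 libraries measured 6.04 CPM for CCL20, 28.6 for CXCL1, 3.46 for CXCL6, 25.3 for CXCL8 and 3.46 for CXCL3. It measured 18.8 CPM for PI3, 4.67 for PIGR, 4.62 for CFB, 3.85 for POU2F2, 7.19 for ICAM1 and 9.23 for BIRC3. For the interferon-stimulated genes it measured 2.32 CPM for IFI44L, 1.96 for MX2 and 11.1 for OAS2. With CXCL1, for instance, the Bojungikgi-tang libraries measured 30.6, 31.2 and 28.6 CPM at the high, medium and low dose. They lay within the range of the Banhasasim-tang libraries of all doses together. At the high and medium doses they lay below every Banhasasim-tang library of the matched dose, and at the low dose within its range. For 63 of the 81 called genes, and 11.1% of all tested genes, the lowest Bojungikgi-tang library lay above the highest vehicle library. These genes were chosen for their difference between the other formulas, and with 1 library a dose nothing here was tested.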

How the results depend on the processing

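Over all doses the count of 81 stayed within 1.5 times under every alternative: 81 with DESeq2 size factors, 91 with DESeq2, 107 with no filter on low counts, 108 with all 57 libraries, 108 with limma voom and library quality weights, 84 with the medium and low doses alone, 78 without the dose block, and 70 to 102 when 1 library was left out. Genes called lower in Banhasasim-tang numbered 7 with no filter, 6 with all 57 libraries and 5 with voom. There were 1 with DESeq2, 1 with the replicate block, 2 with that block within dose and 0 to 2 with 1 library left out. Of the 81 genes, 63 were called in every alternative run, 0 reversed, and for 13 at least 1 left-out library ended the call. The NF-kB list kept 14 to 16 called members and the interferon list 15 to 22. Single-dose counts moved more. The high dose gave 50 with DESeq2, 170 with no filter, 57 with all libraries, 101 with voom and 20 to 51 with 1 library left out. The medium dose gave 55 with no filter, 59 with voom and 17 to 49 with 1 left out, and the low dose 56, 62 and 16 to 51. The interaction gave 2 with DESeq2, 53 with no filter and 0 to 1 with 1 left out, the 1 being SLC9A3R1-AS1 without Yijung-tang high 2. The cause of these shifts was not tested. Voom gave Banhasasim-tang high 2 a weight of 0.0671.

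Replicate numbers were compared between the formulas within a dose, so replicate structure inside a formula could not be seen. The correlation of same-numbered deviations ran from -0.24 to 0.35 over 9 pairs, above 0.1 in 4. Of 9 Banhasasim-tang libraries, 3 correlated best with the Yijung-tang library of their own number. At the high dose these deviations include that of high 2. The Yijung-tang libraries numbered 3 held 12.1 to 12.5 M counts, and those numbered 1 and 2 held 17.6 to 21.1 M. With the replicate block, 80 genes were called over all doses (73 with the block within dose), 30 at the high, 30 at the medium and 24 at the low dose, and 0 in the interaction, with 449 at an unadjusted p under 0.05.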

Other observations

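The same transcripts were read in the single-herb extracts of the series, as values with no test. These libraries carry other set codes than those of Banhasasim-tang, so extract and set cannot be told apart. CXCL1 in cells given Aconiti Lateralis Radix Preparata, processed aconite root, measured 6.55 to 7.04 CPM at the low, 12.4 to 13.96 at the medium and 23.1 to 35.5 at the high dose. In Banhasasim-tang on the same scale it measured 27.3 to 28.9, 33.6 to 37.0 and 33.3 to 44.1 CPM. CCL20 ran from 1.20 to 1.67 CPM at the low to 4.63 to 8.72 CPM at the high dose of aconite. PIGR showed another order there, with 2.58 to 3.15 CPM at the low, 2.82 to 3.73 at the medium and 1.24 to 1.51 at the high dose. In the other 3 single herbs (Citri Unshius Pericarpium, Cimicifugae Rhizoma and Bupleuri Radix) CXCL1 lay between 0.852 and 3.14 CPM over all doses.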
